A study of Homo sapiens with 6 samples.

Results

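The genes described here are the subunits of NF-kB, inhibitors that feed back on it, and TNFAIP2, a gene induced by TNF that is not such an inhibitor. Chosen by name, they are RELA, RELB, REL, NFKB1, NFKB2, NFKBIA, NFKBIB, NFKBIE, TNFAIP2 and TNFAIP3. All 10 were found, each in 1 row, among the 19785 genes of the table. They were compared between parental SET-2 cells and SET-2 OTX P/R cells, with 3 libraries of total RNA per group. SET-2 cells are an established human line with megakaryocyte features, labelled as secondary AML, and OTX P/R is the OTX persister and resistant line made from them; OTX is taken to be a BET inhibitor because the series title names that class of drug. Both lines were untreated and in exponential growth in RPMI medium with fetal bovine serum, so no drug was present in either group. The 3 resistant libraries carry 1 line name and are called biologic replicates, so an effect of resistance and a difference peculiar to this line cannot be told apart.

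NF-kB proteins are dimers of 5 related subunits. RELA, RELB and REL carry a domain that activates transcription, while NFKB1 and NFKB2 are made as precursors that are cut to the shorter DNA-binding subunits. IkB proteins hold the dimers in the cytoplasm until IkB kinase marks them for destruction, and the freed dimers switch on inflammatory and survival genes together with their own inhibitors. In the noncanonical branch, the kinase MAP3K14 leads to cutting of the NFKB2 precursor, which releases dimers of RELB.

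Several of these genes are known to be targets of NF-kB themselves, and matches to the kB consensus, the sequence that the dimers bind, stand just upstream of their starts. RefSeq promoters on GRCh38.p14 were found for 8 of the 10 genes, in 13 windows of 250 bases upstream of a start; RELB and NFKBIE were not among them. A match on either strand lay in 7 of the 13 windows and for 6 of the 8 genes, where 5.21% of all 35116 windows and 6.28% of all gene symbols in the table held one. The stretches below show these sites so that they can be compared; capitals mark the matches, which overlap on opposite strands in REL and NFKBIB and number 2 in TNFAIP3. The consensus needs letters for several bases at some places and is therefore given by name only. Each is written along the strand of its gene, on chr2:60881517-60881546 for REL, chr4:102501300-102501329 for NFKB1, chr10:102394490-102394519 and chr10:102395674-102395703 for windows 2 and 3 of NFKB2, chr14:35404811-35404840 on the minus strand for NFKBIA, chr19:38899931-38899960 for NFKBIB and chr6:137867188-137867217 for TNFAIP3.
REL: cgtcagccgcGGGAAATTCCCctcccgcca
NFKB1: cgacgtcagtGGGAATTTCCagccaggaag
NFKB2 window 2: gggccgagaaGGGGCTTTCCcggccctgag
NFKB2 window 3: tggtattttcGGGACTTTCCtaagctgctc
NFKBIA: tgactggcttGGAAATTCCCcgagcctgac
NFKBIB: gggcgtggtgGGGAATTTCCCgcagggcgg
TNFAIP3: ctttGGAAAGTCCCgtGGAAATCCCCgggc

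The match nearest to the start began 49 bases upstream in NFKB1, 81 in NFKBIA, 46 in REL, 27 in NFKBIB, 55 in TNFAIP3, and 78 and 21 in windows 2 and 3 of NFKB2. Both of these NFKB2 windows held further matches, which began 106 or more bases upstream and are not printed. No match lay in the windows of RELA and TNFAIP2. A match is a description of the letters only. As given below, of the 6 genes with a match NFKB2 fell, 3 did not pass the test and 2 were too low to be tested, while TNFAIP2, without a match in its window, also fell.

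The deposited value is a StringTie abundance per gene, quantile-normalized and taken to be scaled for gene length although its unit is not stated, so that it keeps only where a gene ranks in its library; the sum of the values lay between 419375 and 419437 in every library, and the sequencing depth is unknown. A gene was tested where its mean over the 6 libraries was at least 1, which 8 of the 10 genes reached; REL and TNFAIP3 did not. Differences are log2 fold changes of (value + 1), OTX P/R against parental, with p-values from limma adjusted by the Benjamini-Hochberg method over all 10741 genes tested, and a gene is said to have risen or fallen at an adjusted p under 0.05. Correlations of log2 values were 0.986 to 0.988 between libraries of a group and 0.948 to 0.949 between groups, and no library stood apart. Of 12 tested megakaryocyte and erythroid markers 8 rose, 2 fell and 2 did not pass, that is 83.3% called against 36.1% of all genes tested. The 2 that fell were ITGA2B, from a mean of 216 in parental to 138 in OTX P/R cells, and KIT, from 106 to 54.3. The summed level of the 13 markers, with PF4 listed at 0 throughout, was 1148 to 1180 in parental and 1189 to 1204 in OTX P/R libraries.

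Of the 8 tested genes 1 rose, NFKBIE, and 3 fell, RELB, NFKB2 and TNFAIP2; RELA, NFKB1, NFKBIA and NFKBIB did not pass. Over all genes tested, 36.1% passed, 18.6% higher and 17.5% lower, and the 4 of 8 are 50.0%. For 6 of the 8 no OTX P/R library fell within the range of the parental ones, against 51.6% of all genes tested. The median log2 fold change of the 8 was -0.02, and that of all genes tested was 0.02. In bulk RNA, fewer cells that make a transcript and less transcript per cell cannot be told apart.

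**Figure D1:**
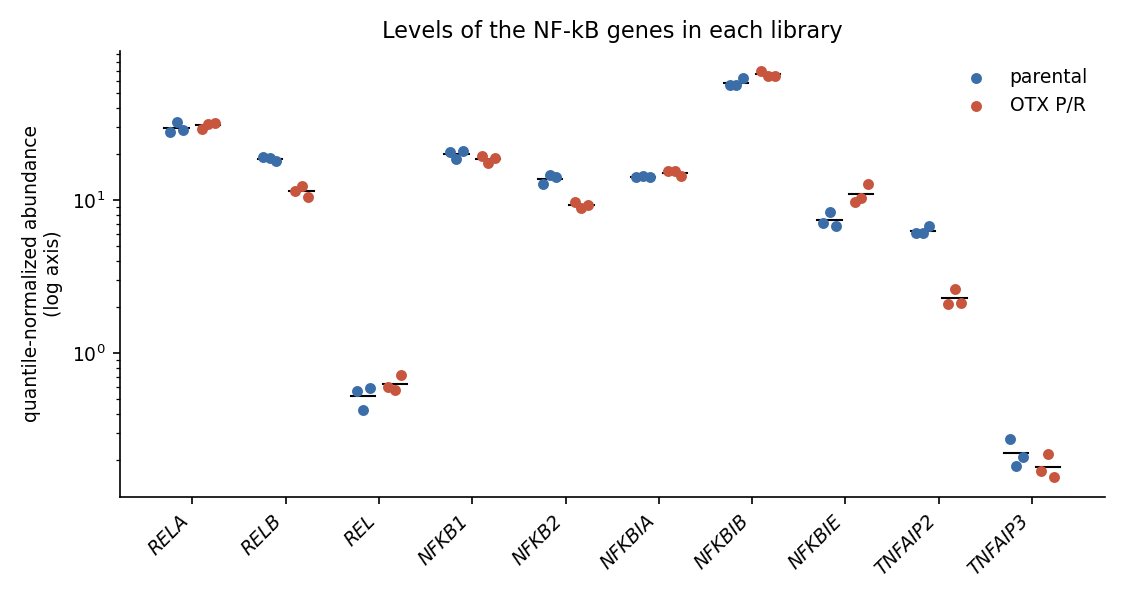
Quantile-normalized abundance (log axis) of the 10 NF-kB genes in each of the 3 parental and 3 OTX P/R libraries; points are libraries and bars are group means. RELB, NFKB2 and TNFAIP2 are lower in all 3 OTX P/R libraries and NFKBIE is higher, while REL and TNFAIP3 stay below 1 in every library.

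RELA, the activating subunit of the main canonical dimer, was the most abundant subunit in both lines. Its level was 27.6, 32.4 and 28.8 in the parental libraries and 28.96, 31.6 and 32.0 in the OTX P/R libraries. The groups overlapped, and RELA did not pass (log2 fold change 0.06 ± 0.08 SE, 95% interval -0.13 to 0.25, limma adjusted p = 0.587).

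RELB, the activating partner in noncanonical dimers, was lower in OTX P/R cells. The parental libraries stood at 19.0, 18.9 and 18.1 and the OTX P/R libraries at 11.5, 12.4 and 10.4. Every OTX P/R library was thus below every parental library, and the parental mean of 18.6 ± 0.515 (SD, n = 3) was 1.63 times the OTX P/R mean of 11.4 ± 0.976. RELB changed by a log2 fold of -0.66 ± 0.07 SE (95% interval from -0.84 to -0.49; adjusted p = 9.18e-04 by limma).

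REL, the subunit typical of lymphoid cells, was barely present. Its level was 0.567, 0.424 and 0.595 in parental libraries and 0.604, 0.572 and 0.717 in OTX P/R libraries. These ranges overlapped, and without the filter on low values REL did not pass (log2 difference 0.09, limma adjusted p = 0.304).

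NFKB1, the precursor of the DNA-binding partner of RELA, did not pass. It stood at 20.4, 18.5 and 21.0 in parental and 19.3, 17.5 and 18.8 in OTX P/R libraries, which overlap. Its log2 fold change was -0.10 ± 0.07 SE (95% interval from -0.27 to 0.06; adjusted p = 0.296 by limma).

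NFKB2, the precursor that both restrains RELB and, once cut, pairs with it, fell together with RELB. Its level was 12.6, 14.6 and 14.0 in the parental libraries and 9.76, 8.91 and 9.28 in the OTX P/R libraries. The groups did not overlap, and the parental mean of 13.7 ± 1.00 was 1.48 times the OTX P/R mean of 9.31 ± 0.426 (SD, n = 3). NFKB2 changed by a log2 fold of -0.51 ± 0.07 SE (95% interval from -0.69 to -0.34; adjusted p = 0.00253 by limma).

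**Figure D2:**
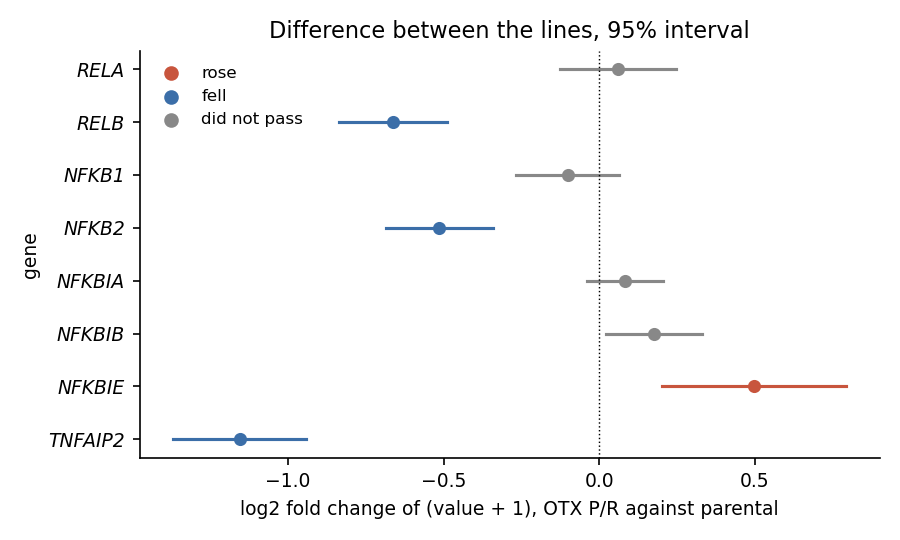
Log2 fold change of (value + 1) between OTX P/R and parental cells for the 8 tested genes, with 95% intervals from limma; colours give the call at an adjusted p under 0.05. RELB, NFKB2 and TNFAIP2 lie below 0 and NFKBIE above it, and the intervals of RELA, NFKB1 and NFKBIA include 0.

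The subunit levels were added within a library on the assumption that the values are scaled for gene length, and the sums, shares and ratios below rest on it. The sum of the 5 subunits was 80.3, 84.7 and 82.5 in parental libraries and 70.1, 70.9 and 71.3 in OTX P/R libraries, so all OTX P/R sums were lower. RELB made up 22.6% ± 0.960 of the sum in parental and 16.2% ± 1.42 in OTX P/R cells, and NFKB2 16.6% ± 0.796 and 13.2% ± 0.694 (SD, n = 3). The share of RELA was 35.9% ± 2.10 in parental and 43.6% ± 1.98 in OTX P/R cells, although its own level did not pass the test. The sum and the shares of RELA, RELB, NFKB2 and REL did not overlap between groups, and an exact two-sided permutation test gave p = 0.1 for each, the smallest value that 3 libraries against 3 allow. The share of NFKB1, 24.2% ± 2.10 against 26.2% ± 1.43, overlapped (exact permutation p = 0.3), and REL made up 0.642% and 0.892%. The level of REL itself overlapped between the groups and was too low to be tested.

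**Figure D3:**
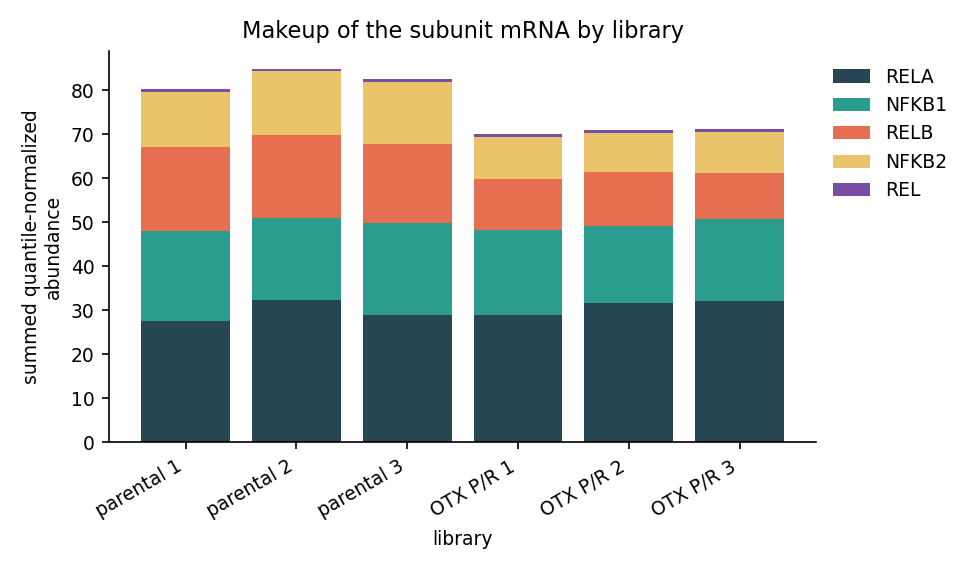
Summed quantile-normalized abundance of the 5 NF-kB subunit genes in each library, stacked by gene. The parental bars reach 80.3 to 84.7 and the OTX P/R bars 70.1 to 71.3, and the segments of RELB and NFKB2 do not overlap in height between the groups, while those of NFKB1 and RELA do.

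Within a library, RELB stood below RELA by a log2 ratio of -0.66 ± 0.123 in parental and -1.43 ± 0.159 in OTX P/R cells. The log2 ratio of NFKB2 to NFKB1, the precursors of the noncanonical and canonical branches, was -0.54 ± 0.179 in parental and -0.99 ± 0.0245 in OTX P/R cells (SD, n = 3). Neither ratio overlapped between the groups, and the exact two-sided permutation test gave p = 0.1 for both. In both pairs the noncanonical gene was thus lower relative to its canonical counterpart in the OTX P/R libraries.

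The 3 classical IkB inhibitors were unequal in level and in difference. NFKBIA, which encodes the inhibitor IkB-alpha that is rapidly made again after activation, stood at 14.1, 14.2 and 14.2 in parental and 15.4, 15.4 and 14.4 in OTX P/R libraries. The OTX P/R values were all above the parental ones, but by little, and the difference did not pass (0.08 on the log2 scale, 95% interval from -0.04 to 0.21; adjusted p = 0.249 by limma). NFKBIB, which encodes IkB-beta, had the highest level of the 10 genes, at 56.1, 56.5 and 62.8 in parental and 69.5, 64.5 and 64.4 in OTX P/R libraries. These did not overlap either, and the difference of 0.18 on the log2 scale (95% interval from 0.02 to 0.33; adjusted p = 0.0754 by limma) passed only with parental replicate 3 left out (0.0377). NFKBIB overlaps SIRT2 on the opposite strand, which stood at 23.7 in parental and 26.8 in OTX P/R cells. Since the use of strand in counting is not stated, reads from the stretch that both genes share may have been counted for either. The length of that stretch was not examined.

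NFKBIE, which encodes the inhibitor IkB-epsilon, was the member that rose. Its level was 7.03, 8.32 and 6.79 in the parental libraries and 9.63, 10.3 and 12.7 in the OTX P/R libraries. The groups did not overlap, but the OTX P/R libraries were spread more widely, and the means of 7.38 ± 0.822 and 10.9 ± 1.63 (SD, n = 3) differed 1.47 times. NFKBIE changed by a log2 fold of 0.50 ± 0.12 SE (95% interval from 0.20 to 0.79; adjusted p = 0.0219 by limma). Leaving out parental replicate 1 or parental replicate 3 ended the call (limma adjusted p = 0.0656 and 0.0696), and with any single library left out the log2 fold change lay between 0.39 and 0.58.

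Relative to RELA plus REL in the same library, NFKBIE had a log2 ratio of -2.03 ± 0.0721 in parental and -1.54 ± 0.156 in OTX P/R cells (SD, n = 3; exact two-sided permutation p = 0.1, no overlap). For NFKBIA this ratio was -1.09 and -1.06, and for NFKBIB 0.96 and 1.07. The ratios of NFKBIA and NFKBIB overlapped between the groups (exact permutation p = 0.8 and 0.5).

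TNFAIP2, a gene induced by TNF whose protein acts on the actin cytoskeleton and membrane protrusions, had the largest difference of the 10 genes. Its level was 6.06, 6.08 and 6.73 in parental libraries and 2.08, 2.63 and 2.14 in OTX P/R libraries. All OTX P/R libraries were far below the parental ones, and the parental mean of 6.29 ± 0.379 was 2.76 times the OTX P/R mean of 2.28 ± 0.300 (SD, n = 3). TNFAIP2 changed by a log2 fold of -1.15 ± 0.09 SE (95% interval from -1.37 to -0.94; adjusted p = 2.34e-04 by limma). As a low gene it depends on the pseudocount, and the log2 fold change was -1.43 with a pseudocount of 0.1 and -0.63 with a pseudocount of 5. TNFAIP2 is known to be expressed in myeloid cells, and of 3 tested monocyte and macrophage markers 2 fell and 1 did not pass; the summed level of the 7 markers measured was 324.1 to 353.6 in parental and 194.4 to 217.7 in OTX P/R libraries, with CD163 at 0 and CD14, CSF1R and FCGR3A below 0.1 in every library. Most of that difference was CD68, at 236.8 ± 7.97 in parental and 111.2 ± 0.816 in OTX P/R cells (SD, n = 3), while LYZ did not pass, at 95.7 ± 7.63 and 92.2 ± 10.9. The part of these genes in the result was not tested.

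TNFAIP3, the ubiquitin-editing enzyme that shuts off signalling to IkB kinase, was close to the floor of the table. It stood at 0.276, 0.182 and 0.210 in parental and 0.169, 0.218 and 0.156 in OTX P/R libraries. The groups overlapped, and without the filter on low values TNFAIP3 did not pass (log2 difference -0.05, limma adjusted p = 0.377).

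In parental cells the order of mean levels was NFKBIB, RELA, NFKB1, RELB, NFKBIA, NFKB2, NFKBIE, TNFAIP2, REL and TNFAIP3. The ranges of NFKB1 and RELB overlapped there, as did those of NFKBIA and NFKB2. In OTX P/R cells NFKBIA stood above RELB and NFKBIE above NFKB2, and the ranges of RELB and NFKBIE and of NFKBIE and NFKB2 overlapped. The level of NFKBIB exceeded that of 93.8% of all genes in parental and 94.6% in OTX P/R cells, while TNFAIP2 moved from above 65.4% of genes to above 52.7%.

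The 3 tested genes whose log2 values followed TNFAIP2 most closely over the 6 libraries were DRG1 (Pearson r = 0.999), ZNF440 (r = 0.999) and NDFIP1 (r = 0.998). This is a description over 6 libraries that fall into 2 groups, and 125 genes had an r above 0.99. All of the 3 were lower in OTX P/R libraries, NDFIP1 at 15.8 ± 0.373 against 24.2 ± 0.430 (SD, n = 3).

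To see whether the members moved with their surroundings, the 12 tested genes on each side of each were examined, with the gene order of GENCODE release 29. The median log2 fold change of these 24 neighbours lay between -0.08 and 0.13 for every member. Around TNFAIP2 it was 0.08, with 7 genes that rose and 1, the adaptor TRAF3, that fell, and the nearest tested genes CDC42BPB and EIF5 had log2 fold changes of 0.44 and -0.06. Around NFKBIE it was 0.10, and the nearest genes SLC35B2 and AARS2 stood at -0.23 and 0.14. Around NFKB2 it was -0.03, with GBF1 at -0.04 and PSD at 1.03. Single neighbours differed by more than the member itself did around NFKBIE (VEGFA, 1.70, and PAQR8, 0.67, which both rose). Around NFKB2 such neighbours went both ways. PSD and TRIM8 (0.63) rose, CNNM2 (-0.63) fell, and BTRC (-0.75) was lower but did not pass. None of the 24 differed by more around TNFAIP2. The neighbours named for size were chosen after their values were seen.

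RELB, on chromosome 19, had a neighbour median of 0.06, with 9 genes that rose and 4 that fell, and CLPTM1 at -0.12 and CLASRP at -0.13 next to it. Just beyond CLPTM1, the apolipoprotein genes APOC2, APOC1 and APOE had log2 fold changes of -0.85, -0.93 and -1.58, and the readthrough APOC4-APOC2 one of -0.74; these are the 4 that fell, named after their values were seen. BCL3, an atypical IkB protein, is 1 of the 9 that rose.

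**Figure D4:**
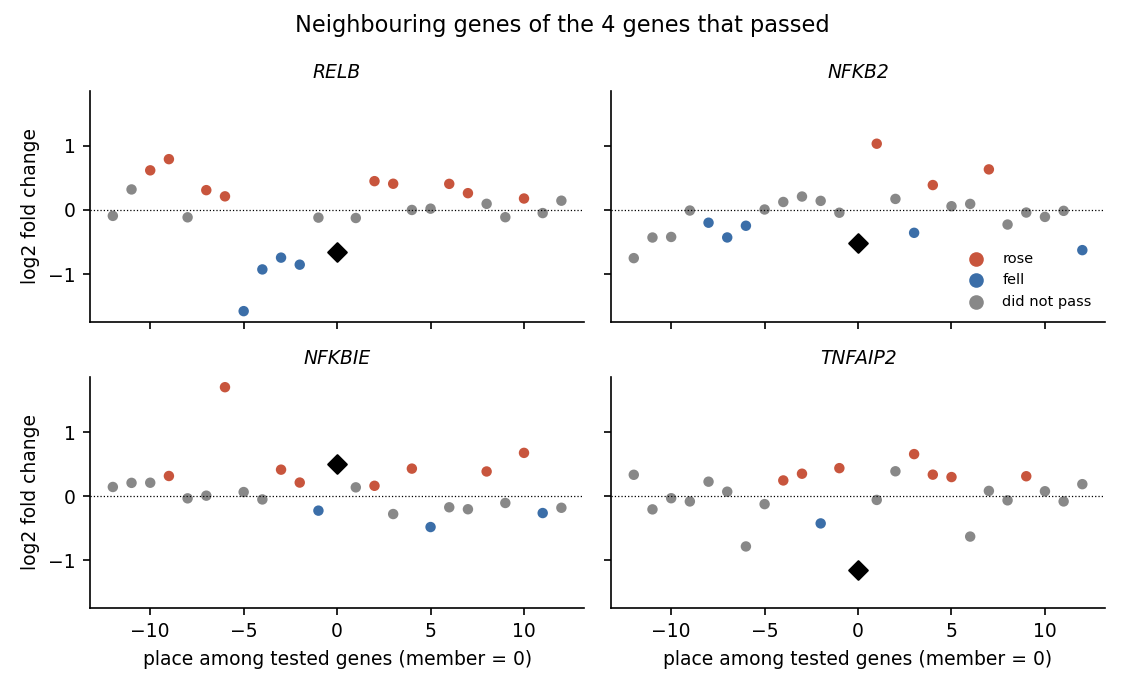
Log2 fold change of the 12 tested genes before and after RELB, NFKB2, NFKBIE and TNFAIP2 along the chromosome; the horizontal axis counts tested genes, the diamond is the member and colours give the call. TNFAIP2 lies below all of its neighbours, whereas RELB has a group of 4 genes nearby that fell.

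The other genes of the pathway were taken from 5 lists with 108 genes, of which 63 were tested. Of these 8 rose, 17 fell and 38 did not pass, that is 39.7% called against 36.1% of all genes tested, with a median log2 fold change of -0.03 against 0.02. The lists differed in their counts, and the differences between lists were not tested.

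Of 6 genes of the IkB kinase complex and related kinases, 5 were tested, 1 rose and 4 did not pass, with a median log2 fold change of 0.13. IKBKG, the regulatory subunit, stood at 8.23 ± 0.236 in parental and 10.3 ± 0.847 in OTX P/R cells and rose (0.29 on the log2 scale, limma adjusted p = 0.0221). Leaving out parental replicate 1 or 3, or OTX P/R replicate 1 or 2, ended its call, at an adjusted p of 0.0620, 0.0593, 0.0716 and 0.0705. IKBKG has a near-identical pseudogene copy, so its level is uncertain. The catalytic subunits CHUK and IKBKB did not pass, at 11.5 against 10.3 and 7.95 against 5.95 (adjusted p = 0.133 and 0.0543). MAP3K14, the noncanonical kinase, was too low to be tested, at 0.408, 0.412 and 0.359 in parental and 0.230, 0.195 and 0.212 in OTX P/R libraries. All 3 OTX P/R values of MAP3K14 were lower, while those of CHUK and IKBKB were all higher than the parental ones. Groups did not overlap for 51.6% of all genes tested.

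Of 22 adaptors and ubiquitin ligases, 19 were tested, none rose, 3 fell and 16 did not pass, with a median log2 fold change of -0.09. TRAF3, the adaptor that keeps MAP3K14 low, fell from 13.5 ± 1.84 to 9.77 ± 0.315, and its call was lost without OTX P/R replicate 2 (limma adjusted p = 0.0600). TAB1, which activates the kinase upstream of IkB kinase, fell from 18.9 ± 0.923 to 15.9 ± 0.327, and its call was lost without OTX P/R replicate 3 (0.0558). BIRC3, a ubiquitin ligase that NF-kB is known to induce, fell from 1.83 ± 0.462 to 0.639 ± 0.137. It is below the level set for naming and was added after its values were seen. With an OTX P/R mean below 1, BIRC3 reached the tested level only through the parental libraries. Its log2 fold change lay between -1.37 and -0.27 over the 13 alternatives in which it was tested.

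Of 18 other inhibitors and deubiquitinases, 16 were tested, 4 rose, 4 fell and 8 did not pass, with a median log2 fold change of 0.04. BCL3, a nuclear IkB protein that binds the short NFKB1 and NFKB2 products, stood at 29.2, 29.5 and 25.9 in parental and 50.2, 49.0 and 49.3 in OTX P/R libraries. It rose without overlap (log2 fold change 0.79 ± 0.06 SE, limma adjusted p = 2.52e-04). NFKBIZ, another nuclear IkB protein, rose from 0.634 ± 0.331 to 2.07 ± 0.303 (limma adjusted p = 0.00633). With a parental mean below 1, NFKBIZ reached the tested level only through the OTX P/R libraries. Its log2 fold change lay between 0.33 and 1.64 over the 13 alternatives in which it was tested, with the call kept in each.

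NKIRAS2, a small GTPase that binds IkB proteins, fell from 20.2 ± 1.73 to 12.6 ± 0.731, and TNIP1, the partner of TNFAIP3, fell from 11.2 ± 0.219 to 7.38 ± 1.76 (SD, n = 3 per group). Both stand among neighbours that were lower: 21 of the 24 tested neighbours of NKIRAS2 on chromosome 17 fell, and 22 of those of TNIP1 on chromosome 5, with medians of -0.67 and -0.89. NKIRAS2 also overlaps DNAJC7 on the opposite strand, which stood at 65.7 in parental and 29.3 in OTX P/R cells. Since the use of strand in counting is not stated, reads from the stretch that this pair shares may have been counted for either gene. The TNIP1 call was lost without any 1 of the 3 parental libraries and without OTX P/R replicate 2 or 3, at a limma adjusted p of up to 0.0791. CYLD, a deubiquitinase that removes the chains made on the way to IkB kinase, did not pass (5.77 against 6.20). TNIP2 and RNF11 were the other genes that rose, and OTULIN and NKRF the others that fell, named after their values were seen. The RNF11 call was lost without OTX P/R replicate 1 or 3 (limma adjusted p = 0.0512 and 0.0533). With 1 library left out, the NKRF call was lost in every fit, and the OTULIN call in every fit but that without OTX P/R replicate 2. NKRF overlaps UBE2A on the opposite strand, which stood at 31.4 in parental and 23.5 in OTX P/R cells, with the same limit.

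Of 22 receptors that signal to NF-kB, 7 were tested, 1 rose, 2 fell and 4 did not pass, with a median of -0.02 on the log2 scale; 15 were below the tested level, all of the 9 Toll-like receptors among them. The TNF receptors went in opposite directions. TNFRSF1A, the broadly expressed receptor, stood at 28.7, 30.1 and 30.1 in parental and 42.0, 42.9 and 43.5 in OTX P/R libraries and rose (log2 fold change 0.51 ± 0.04 SE, limma adjusted p = 3.92e-04). TNFRSF1B, the receptor of blood and immune cells, stood at 9.31, 8.78 and 8.44 in parental and 1.12, 1.01 and 0.765 in OTX P/R libraries and fell (log2 fold change -2.33 ± 0.09 SE, adjusted p = 2.27e-05). Like that of TNFAIP2, the size depends on the pseudocount. The log2 fold change of TNFRSF1B lay between -3.08 and -1.21 over the 13 alternatives in which it was tested, with the call kept in each. With an OTX P/R mean of 0.965, TNFRSF1B reached the tested level only through the parental libraries.

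TNFRSF8, also called CD30, lies next to TNFRSF1B among the tested genes of chromosome 1 and fell from 23.0 ± 1.59 to 14.6 ± 0.293. LTBR, a receptor of the noncanonical branch added after its values were seen, did not pass, at a log2 fold change of -0.02 (limma adjusted p = 0.887).

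Of 40 known NF-kB target genes, 16 were tested, 2 rose, 8 fell and 6 did not pass, with a median log2 fold change of -0.40 against 0.02 over all genes tested. The share called was 62.5% against 36.1%. The list was chosen with earlier results of these data known, so these values are a description and not a test of the list. PLAU, CXCL8, NINJ1 and MAP3K8 averaged 0.563, 0.765, 0.914 and 0.809 in OTX P/R cells. They reached the tested level only through the parental libraries, so the counts and the median depend on the filter. With a minimum mean of 5, 4 target genes fell and 1 rose. ICAM1, an adhesion molecule, stood at 13.9, 13.3 and 12.5 in parental and 5.16, 5.15 and 4.77 in OTX P/R libraries, and fell without overlap (log2 fold change -1.24 ± 0.06 SE, limma adjusted p = 5.79e-05). PLAU, the urokinase protease, fell from 2.73 ± 0.279 to 0.563 ± 0.0395. The other 6 that fell, named after their values were seen, were CSF1, IRF1, CXCL8, NINJ1, MAP3K8 and IL1B, among them the cytokine IL1B from 60.2 ± 0.914 to 39.1 ± 1.73. Leaving out parental replicate 1 or 3, or OTX P/R replicate 1 or 2, ended the call of MAP3K8, at a limma adjusted p of 0.103, 0.110, 0.0693 and 0.0772. Neighbours were lower around some of these genes: of the 24, 11 fell around ICAM1, 12 around IRF1 and 9 around CSF1, with medians of -0.29, -0.32 and -0.16.

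CD83, a surface protein of activated immune cells, rose from 1.89 ± 0.236 to 3.50 ± 0.0268 among neighbours on chromosome 6 of which 16 of 24 rose. BCL2L1, which protects from cell death, rose from 38.6 ± 6.62 to 54.8 ± 1.09, and its call was lost without any 1 of the 3 OTX P/R libraries, at a limma adjusted p of up to 0.0684. Of the 24 target genes below the tested level, 6 were listed at 0 in all libraries, TNF, LTA and LTB among them. These neighbours in the MHC region of chromosome 6 share that with NFKBIL1, which lies beside them, and TAP1 in the same region was at or close to 0; an exact 0 can be a failed estimate, and whether these genes were silent or not counted was not tested.

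**Figure D5:**
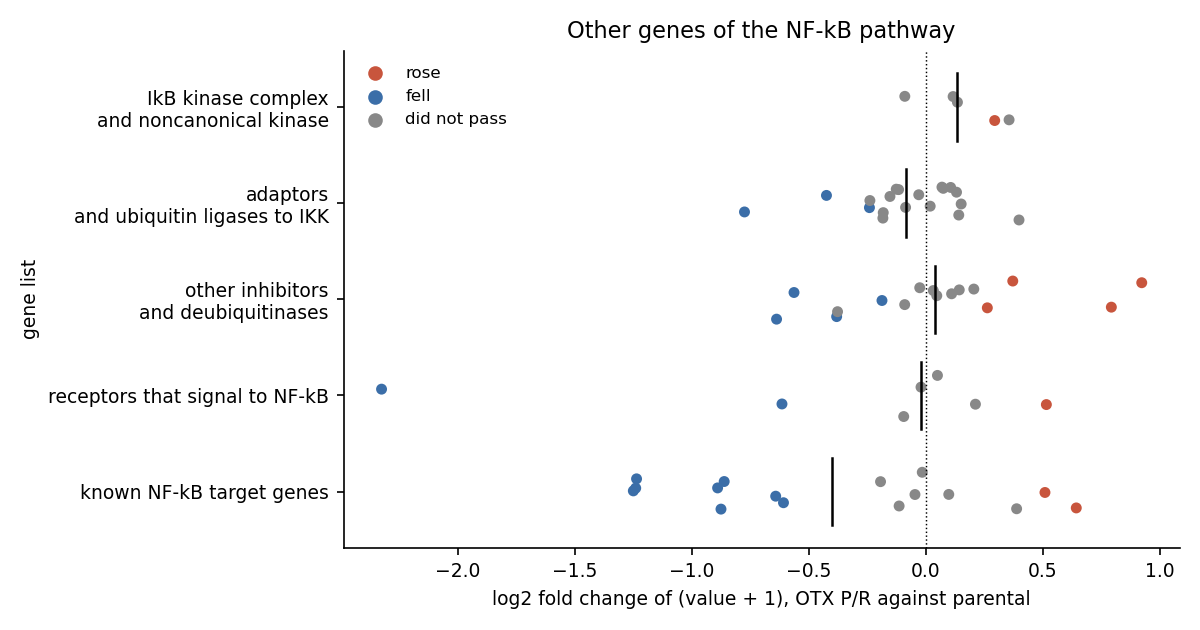
Log2 fold change of (value + 1), OTX P/R against parental, of each tested gene in the 5 pathway lists; points are genes, colours give the call and the black bar is the median of the list. The median is -0.40 for the known target genes and between -0.09 and 0.13 for the other lists.

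Markers of other cell types differed between the groups as well. All 3 tested T and NK cell markers fell, with a summed level of the 7 measured of 69.5 to 78.3 in parental and 29.5 to 31.8 in OTX P/R libraries. Most of that sum was NKG7, at 62.2 ± 2.64 in parental and 29.6 ± 1.31 in OTX P/R cells (SD, n = 3). CD3D fell from 5.24 to 0.593 and GZMB from 4.50 to 0.205, and both reached the tested level only through the parental libraries. CD3E, CD3G and CD8A stood below 0.1 in every library. Both tested B cell markers fell, with a summed level of 13.8 to 16.1 against 9.996 to 10.9 for the 5 measured, and MS4A1 was listed at 0. The 1 tested gene of the stromal and endothelial list, PECAM1, rose, as did KRT18, the 1 tested epithelial gene. The summed levels were 7.51 to 8.80 in parental and 17.03 to 18.2 in OTX P/R libraries for the stromal and endothelial list. For the epithelial list they were 8.95 to 11.7 and 13.9 to 16.2. Most of the first sum was PECAM1, at a mean of 7.895 in parental and 15.3 in OTX P/R cells. Most of the second was KRT18, at 9.52 and 14.3. The other stromal and endothelial genes were too low to be tested, COL1A1 among them at 0.0732 and 1.92. The part of all these markers in the results for the NF-kB genes was not tested.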

How the data were processed

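RNA of 6 SET-2 cultures, 3 parental and 3 OTX P/R, was sequenced. The authors ran Trim Galore, HISAT2 and StringTie on hg19, per the submitters' processing notes, which name no versions. Their deposited signal is an abundance per gene from StringTie, with FPKM or TPM left unstated. Sorted values agreed between libraries to 0.243% or better from a value of 1 upwards: the table is quantile-normalized, and differences in total RNA are lost. Groups follow the sample titles. Of 19785 genes 6 with a missing value were left out.

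Tests used limma 3.58.1 in R 4.3.3 (lmFit, eBayes with trend, two-sided) on log2(value + 1) where the mean reached 1; p-values measure only the spread between these cultures. Subunit shares and ratios were compared by exact permutation. Python 3.11.15, pandas 2.3.3, NumPy 2.4.6 and Matplotlib 3.10.9 made the tables and plots, and the fit was tested on simulated data. Neighbouring and overlapping genes are from GENCODE release 29, in which 19528 identifiers were found, and promoters from RefSeq on GRCh38.p14; neither is the authors' build.

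The members and lists were chosen with earlier results of these data known. From each pathway list the text names up to 2 genes per direction with the largest change among those called, with no overlap and a level of 2 or more in the higher group, besides direct partners and kinases of the members. Alternatives were pseudocounts of 0.1 and 5, a minimum mean of 5 or none, eBayes without trend or robust, median centring, a block for the replicate number, leaving out each library, and 6 or 25 neighbours on each side.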

Additional observations from a re-analysis of the deposited data

How the results depend on the processing

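The calls of RELB and NFKB2 held under all 14 alternatives and that of TNFAIP2 under the 13 in which it was tested, as did the lack of a call for RELA, NFKB1 and NFKBIA under 14. With single libraries left out, the log2 fold change ranged from 0.39 to 0.58 for NFKBIE and from 0.14 to 0.23 for NFKBIB, the number of members that rose from 0 to 1, and the number of pathway genes that rose from 5 to 8. The 5 was found without OTX P/R replicate 1. Without a filter on low values 17 pathway genes rose and 23 fell, against 8 and 17. With a pseudocount of 0.1 the log2 difference was 0.22 for REL and -0.20 for TNFAIP3. With single libraries left out, 1 to 2 of the other inhibitors and deubiquitinases fell, against 4, and 1 to 2 of the target genes rose, against 2. With a minimum mean of 5, TNFAIP2 was not tested and 4 target genes fell, against 8. The MAP3K8 call was also lost with a pseudocount of 0.1 and, like that of OTULIN, without the filter. Of the 25 pathway genes called, 16 kept their call under every alternative in which they were tested. With the replicate number as a block the log2 fold change of NFKBIE was 0.50 with a limma adjusted p = 0.0576, and 0 members rose. The labels do not say whether a replicate number marks a shared batch. Correlations of same-numbered libraries' deviations from their group means over the tested genes were -0.0647, -0.0277 and -2.94e-04. Those of differently numbered libraries lay between -0.0525 and 0.0788. Such correlations over all tested genes cannot exclude a shared batch that touches only some genes. The block lowered the number of genes called from 3879 to 3159. With 6 or 25 genes on each side the neighbour medians of the members lay between -0.08 and 0.27. Low values such as those of REL, TNFAIP3 and MAP3K14 are limited by an unknown depth.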
